A study of Mus musculus with 3 samples.

Results

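The 8 genes described here are the embryonic and adult globin genes of the mouse, taken by their symbols from the 51923 genes of the deposited count matrix. They are Hbb-y, Hbb-bh1, Hbb-bh0, Hbb-bs and Hbb-bt of the beta-globin locus and Hba-x, Hba-a1 and Hba-a2 of the alpha-globin locus. All 8 were found. Together they held 20435194 of 331587989 unique molecular identifiers (UMIs, the count of captured RNA molecules), or 6.16%.

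Mouse embryos carried Mesp1-Cre, a recombinase expressed from the Mesp1 gene of early mesoderm, and the Ai9 reporter, which turns on red fluorescence wherever Cre has acted. Control embryos were Wls fl/+ and mutant embryos Wls fl/fl, so that both groups carried the Cre, the reporter and at least 1 floxed allele of Wls, which encodes a protein required for Wnt secretion. The strain label was C57BL/6 for every sample. Wls is lost only in cells that expressed Cre and their descendants, and reporter-positive cells of staged E8.0, E8.5 and E9.5 embryos were tagged with lipid barcodes (MULTI-seq), sorted, pooled and sequenced with 10x Chromium v3 chemistry. Each barcode was taken as 1 sample. Nothing in the sources used here says whether a barcode held 1 embryo or several, so p-values measure the spread between barcodes.

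Haemoglobin is a tetramer of alpha-type and beta-type chains, and each locus is transcribed in a developmental order. Primitive erythroid cells, the first red cells of the yolk sac, are known for Hbb-bh1 and Hbb-y as beta-type chains and for Hba-x as the embryonic alpha-type chain, while Hba-a1 and Hba-a2 encode the adult alpha chain and Hbb-bs and Hbb-bt the adult beta chains. In this lineage a maturational switch is known in which Hbb-bh1 comes first and Hbb-y later, and in which adult alpha chains gain over Hba-x.

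The genes lie at 2 places in the GRCm38 build (GENCODE M21 annotation). The beta genes are on the minus strand of chromosome 7 in the order Hbb-y (chr7:103851749-103853216), Hbb-bh0 (chr7:103850020-103850148), Hbb-bh1 (chr7:103841637-103843164), Hbb-bs (chr7:103826534-103828096) and Hbb-bt (chr7:103812524-103813996). The alpha genes are on the plus strand of chromosome 11 in the order Hba-x (chr11:32276400-32278116), Hba-a1 (chr11:32283511-32284465) and Hba-a2 (chr11:32296489-32297298). Hbb-bh0 is annotated as an unprocessed pseudogene of 129 bases, and the other 7 are protein coding.

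How far the counts separate the members depends on their sequences. The coding sequences of Hba-a1 and Hba-a2 differed at 1 of 426 bases and those of Hbb-bs and Hbb-bt at 1 of 441, whereas Hbb-y and Hbb-bh1 were identical at 76.4% of positions. In the last 400 bases of the transcript, where this chemistry reads, all stretches of 31 bases were unique to the gene for Hbb-y, Hbb-bh1, Hbb-bh0 and Hba-x. That share was 43.0% for Hbb-bs and 43.2% for Hbb-bt, but 8.11% for Hba-a1 and 12.7% for Hba-a2. The split between Hba-a1 and Hba-a2 is therefore uncertain, and the split between Hbb-bs and Hbb-bt less so. How reads that fit several genes were counted is not given in the sources used here. The ratios below use Hba-a1 plus Hba-a2 and Hbb-bs plus Hbb-bt. If such reads were left out of the counts, these sums are too low against Hba-x, Hbb-y and Hbb-bh1.

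The 250 bases upstream of the RefSeq start site (GRCm38.p6) were searched for 6 members, Hbb-y, Hbb-bs, Hbb-bt, Hba-x, Hba-a1 and Hba-a2. RefSeq and GENCODE place these starts differently, and 3 to 200 of the 250 bases lie inside the GENCODE gene, so only the bases before that gene are shown. They are shown as examples for an embryonic beta gene, an adult beta gene and an adult alpha gene. The stretches of Hba-x, Hbb-bs and Hba-a1 are shorter, at 50, 82 and 89 bases, and are not shown. Capitals mark the CACCC motif, the CCAAT box, the GATAA core of a GATA site and the TATAAA box, each searched on both strands, and the stretches shown hold no TATAAA. Each sequence runs 5′ to 3′ on the strand of its gene, at chr7:103853217-103853457 (minus), chr7:103813997-103814173 (minus) and chr11:32296242-32296488 (plus).
Hbb-y: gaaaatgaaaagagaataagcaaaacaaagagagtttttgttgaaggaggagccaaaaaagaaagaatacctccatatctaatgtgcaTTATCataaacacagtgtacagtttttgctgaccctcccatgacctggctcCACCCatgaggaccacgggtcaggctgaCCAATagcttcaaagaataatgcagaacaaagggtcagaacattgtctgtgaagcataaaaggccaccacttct
Hbb-bt: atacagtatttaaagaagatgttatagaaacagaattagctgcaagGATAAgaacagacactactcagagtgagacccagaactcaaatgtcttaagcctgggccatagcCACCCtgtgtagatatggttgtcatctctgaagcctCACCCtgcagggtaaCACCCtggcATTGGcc
Hba-a2: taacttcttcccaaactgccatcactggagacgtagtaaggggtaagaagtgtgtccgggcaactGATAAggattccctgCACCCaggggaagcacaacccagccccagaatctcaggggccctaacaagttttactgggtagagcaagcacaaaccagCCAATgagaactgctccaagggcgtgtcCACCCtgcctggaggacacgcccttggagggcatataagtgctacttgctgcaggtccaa

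CACCC, the core of the site that KLF1 and other KLF proteins bind, was present in 6 of 6 member regions of 250 bases and in 51.3% of 27025 upstream regions of the same length. GATAA, the core of a GATA site, was in 6 of 6 against 23.0%. CCAAT was in 5 of 6 against 34.5%, with no match in Hba-x, and TATAAA in 2 of 6, Hbb-bt and Hba-x, against 13.0%. These counts include matches that lie inside the GENCODE gene. Before that gene, the 50 bases of Hba-x held none of these motifs and the 82 bases of Hbb-bs held GATAA alone. The 89 bases of Hba-a1 held CACCC and GATAA, and no member had TATAAA there. In the member regions no match of 1 motif overlapped a match of another, and a match is a description of the sequence only. Laid side by side at the best shift and without gaps, the regions of Hba-a1 and Hba-a2 were identical at 247 of 247 bases. Those of Hbb-bs and Hbb-bt were identical at 127 of 249, a count that any gap between them lowers.

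The matrix held 14777 cells (9852 control, 4925 mutant) in 22 samples, 12 control and 10 mutant, with 134457 to 61307782 UMIs per sample and a median of 21739 per cell. All E8.0 samples came from run 1, all E8.5 samples from run 2, and the E9.5 samples from all 3 runs, so that E8.5 lay in 1 run and E8.0 in another. Wls ran from 35.9 to 65.4 UMIs per 1000000 UMIs of the sample (CPM) in 11 control samples of E8.0 to E9.5 and from 3.72 to 14.2 CPM in 10 mutant samples, with no overlap. One control sample of 28 cells (Bar18) is labelled E7.5, outside the stages of the design, and its Wls level of 14.1 CPM lay within the range of the mutant samples. This sample held 496508 UMIs, so the level rests on few Wls UMIs, and 67.9% of its cells were in the erythroid set defined below. It entered no stage comparison and carried no weight in the genotype comparisons. 23 droplet barcodes occurred in more than 1 run. No doublet caller was run for these results.

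Because globin RNA comes from red cells, each sample was also summed over an erythroid set, the cells with at least 4 of 12 non-globin erythroid genes (among them Klf1, Gata1, Alas2, Hemgn, Slc4a1, Rhag, Nfe2, Epb42, Trim10 and Tspo2). The set held 2313 cells (15.7%) and 97.4% of all globin UMIs. Few cells lay near the threshold, with 125 cells at 3 of the 12 genes and 48 at 4. The 12 genes summed to 2129 CPM in the set and 21.7 CPM in the other cells, a difference that the choice of the set fixes. Several other marker lists were lower in it: 5 cardiomyocyte genes summed to 37.8 CPM against 1515 CPM, 5 mesenchyme genes to 31.01 against 714 CPM and 5 macrophage genes to 3.305 against 8.77 CPM. 5 endothelial genes summed to 37.2 against 102 CPM. Blood progenitor genes summed to 29.5 CPM in the set and 30.5 CPM outside it, and 3 or more of the 5 were found in 2.46% and 0.578% of the cells. Megakaryocyte genes were higher in the set, at 136 CPM in the set and 78.4 CPM outside it, with up to 844 CPM in 1 E9.5 mutant sample, and their part in the results was not tested. Samples with at least 20 cells in the set, 17 of 22, entered the tests on it, namely 6 at E8.0, 2 at E8.5 and 9 at E9.5.

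Globin took up little of the RNA of erythroid cells at E8.0 and a large share of it later. The 8 members together made up 4.04% to 11.2% of the UMIs of the erythroid set in the 6 E8.0 samples. At E8.5 they made up 42.0% in the control sample Bar3 and 27.2% in the mutant sample Bar1. At E9.5 the 9 samples ran from 28.9% to 46.0%. The plot of globin composition shows the same samples split by gene.

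**Figure D1:**
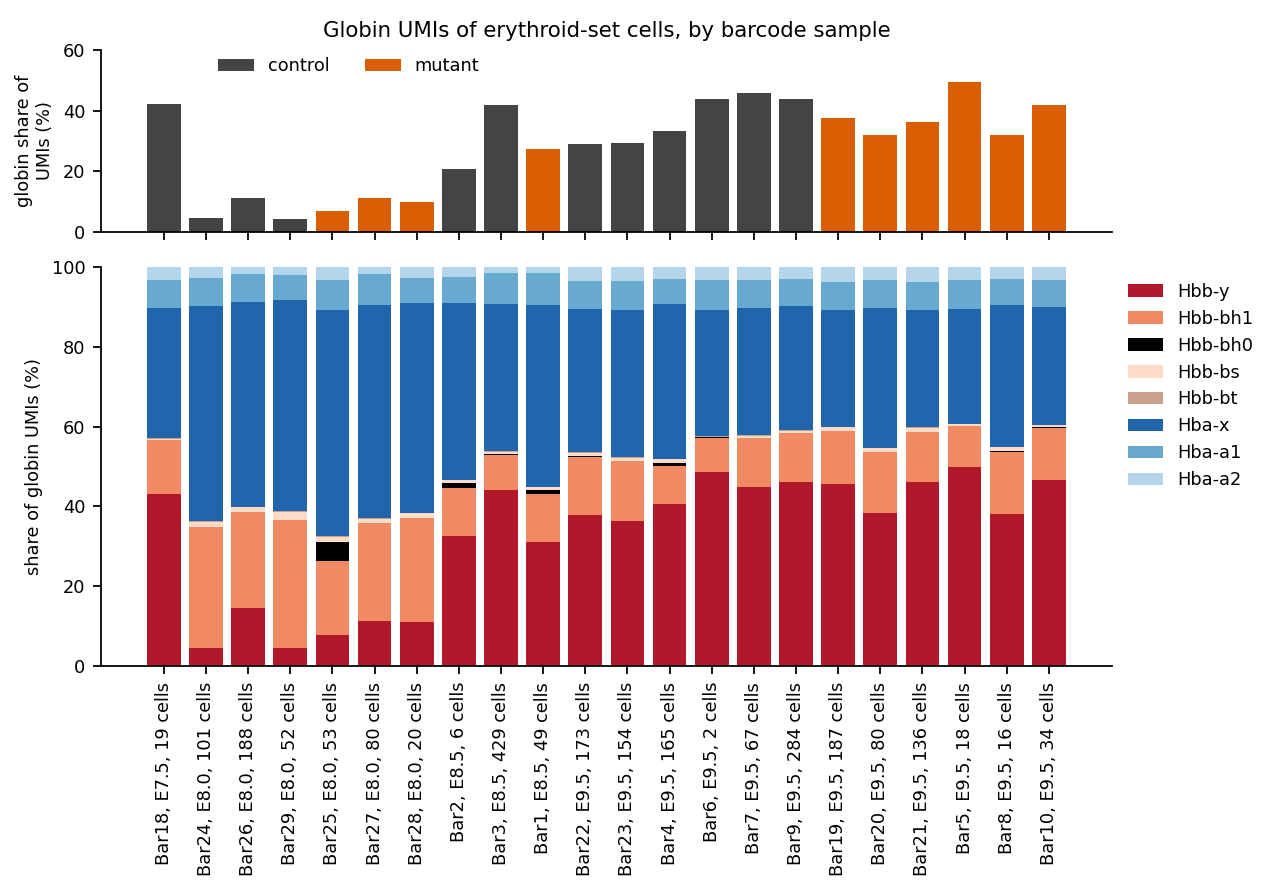
Upper bars give the 8 globins as a percent of all UMIs of the erythroid-set cells of each of the 22 samples, control in grey and mutant in orange, and lower stacked bars split the globin UMIs by gene, in percent, with the number of such cells under each bar. Among samples with at least 20 cells the upper bars reach 4.04% to 11.2% at E8.0 and 28.9% to 46.0% at E9.5, and the Hbb-y part grows from 4.49% to 14.6% of globin UMIs to 36.3% to 46.6%.

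Among the embryonic beta chains, Hbb-y had the largest rise. In the erythroid set at E8.0, Hbb-y stood at 2049, 16425 and 1829 CPM in the control samples Bar24, Bar26 and Bar29 and at 5270.1, 12558 and 10853 CPM in the mutant samples Bar25, Bar27 and Bar28. The E9.5 control samples Bar22, Bar23, Bar4, Bar7 and Bar9 held 109484, 106798, 134527, 206606 and 201770.0 CPM, and the mutant samples Bar19, Bar20, Bar21 and Bar10 held 171261, 121966, 166510.0 and 195387 CPM. Every E9.5 sample lay above every E8.0 sample, and the highest E8.0 value was 16425 CPM against a lowest E9.5 value of 106798 CPM. The mean was 157145 ± 39910 CPM (SD, n = 9) against 8164 ± 6011 CPM (SD, n = 6). The log2 fold change from edgeR's quasi-likelihood test was 4.98 (SE 0.52), with an adjusted p of 1.04e-06 over all genes. In this comparison 15.6% of the genes tested were called higher, and 7 of the 8 members were.

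Hbb-bh1, the beta chain that is known to come first, rose less. At E8.0 it held 13859, 26892 and 12944 CPM in the controls and 12674, 27429 and 25474 CPM in the mutants, in the same order of samples. At E9.5 it held 42409.5, 44530.5, 32132, 56499 and 54222 CPM in the controls and 49848, 48354, 45344 and 55461 CPM in the mutants. The stages did not overlap; the control Bar4 was the lowest of the E9.5 samples. The mean was 47644 ± 7674 CPM (SD, n = 9) against 19879 ± 7399 CPM (SD, n = 6), a log2 fold change of 1.97 (SE 0.23, edgeR adjusted p = 3.84e-06).

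The fold changes above are relative to the bulk of the other genes, through edgeR's TMM factors. Scaling to the total UMIs alone, which includes the globins themselves, moved the median gene to -0.67 on the log2 scale, and the share of higher calls among all calls from 52.2% to 4.79%. Under that scaling the same 7 members were called higher, with Hbb-y at 4.28 and Hbb-bh1 at 1.27 on the log2 scale. All E8.0 samples came from run 1, so the fit was repeated within run 1, where 3 control and 3 mutant samples of E8.0 met 2 control and 3 mutant samples of E9.5. Again 7 members were called higher, against 14.5% of all genes, with Hbb-y at 4.54 and Hbb-bh1 at 1.74. With run as a term of the fit over all 17 samples the 7 were called as well, against 13.2% of all genes called higher, with Hbb-y at 4.60 and Hbb-bh1 at 1.77.

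The order of the embryonic beta chains turned over between the stages. At E8.0 the ratio of Hbb-y to Hbb-bh1 UMIs was 0.148, 0.611 and 0.141 in the controls Bar24, Bar26 and Bar29 and 0.416, 0.458 and 0.426 in the mutants Bar25, Bar27 and Bar28, so that Hbb-bh1 was the more abundant in all 6. At E8.5 it was 5.06 in Bar3 (95% Wilson interval 5.04 to 5.07) and 2.59 in Bar1 (2.56 to 2.62), intervals that cover counting error only. At E9.5 the controls Bar22, Bar23, Bar4, Bar7 and Bar9 stood at 2.58, 2.40, 4.19, 3.66 and 3.72, and the mutants Bar19, Bar20, Bar21 and Bar10 at 3.44, 2.52, 3.67 and 3.52.

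Hbb-y was thus the more abundant in every E8.5 and E9.5 sample. The mean log2 ratio was 3.37 higher at E9.5 than at E8.0 (SE 0.30, n = 9 and 6), which is a ratio 10.3-fold higher. The two-sided exact permutation test, with stages exchanged within genotype, gave p = 0.000510, the smallest that its 1960 permutations can give, and 0.00128 after Benjamini-Hochberg adjustment over 10 tests of ratios and cell shares. The E8.0 samples fell in a low pair of controls, Bar24 and Bar29, and 4 samples from 0.416 to 0.611. Bar24 and Bar29 also had the smallest share of globin among the UMIs of their erythroid cells.

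**Figure D2:**
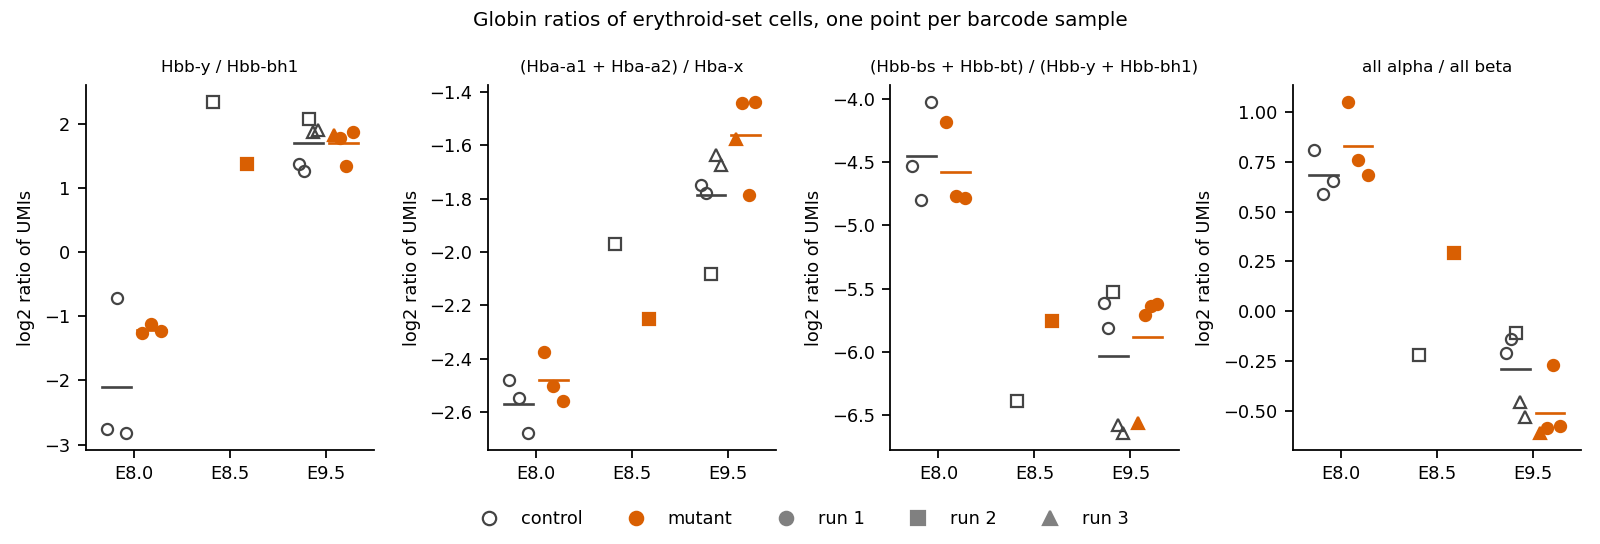
Ratios of globin UMIs in erythroid-set cells by stage on the log2 scale, 1 point per sample with at least 20 such cells, open for control and filled for mutant, with shapes for the runs and lines for group means of at least 3 samples. The E8.0 and E9.5 points do not overlap in any of the 4 ratios, while control and mutant points overlap at E9.5 in each.

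The alpha chains all rose, and the adult ones rose more than the embryonic one. By counted UMIs, Hba-x was the most abundant globin in every E8.0 sample. It held 24649, 57627 and 21343 CPM in the controls and 38588, 59771 and 51685 CPM in the mutants. At E9.5 it held 103378, 108437, 129314, 146795 and 136604 CPM in the controls and 109771, 111829, 105965 and 124357 CPM in the mutants. The groups did not overlap, and the mean rose from 42277 ± 16690 CPM (SD, n = 6) to 119606 ± 15315 CPM (SD, n = 9), a log2 fold change of 2.21 (SE 0.25, edgeR adjusted p = 2.43e-06). As a share of globin UMIs Hba-x went the other way, from 51.3% to 56.5% at E8.0 to 29.2% to 38.9% at E9.5.

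Hba-a1 rose from 5556 ± 2424 CPM (SD, n = 6) to 24924 ± 4170 CPM (SD, n = 9), a log2 fold change of 2.89 (SE 0.29, edgeR adjusted p = 7.85e-07). Hba-a2 rose from 1845 ± 665 CPM (SD, n = 6) to 12454 ± 2058 CPM (SD, n = 9), a log2 fold change of 3.51 (SE 0.27, edgeR adjusted p = 3.63e-08). In neither gene did the stages overlap. The ratio of Hba-a1 plus Hba-a2 to Hba-x was 0.179, 0.171 and 0.156 in the E8.0 controls and 0.193, 0.177 and 0.170 in the E8.0 mutants. At E8.5 it was 0.255 in the control Bar3 and 0.210 in the mutant Bar1. The E9.5 controls Bar22, Bar23, Bar4, Bar7 and Bar9 had 0.298, 0.291, 0.236, 0.322 and 0.313, and the mutants Bar19, Bar20, Bar21 and Bar10 had 0.368, 0.290, 0.369 and 0.335. The stages were apart, and the ratio was 1.80-fold higher at E9.5 (log2 difference 0.85, SE 0.08, exact permutation p = 0.000510, adjusted 0.00128). By counted UMIs, Hba-x stayed the main alpha chain in every sample. Reads shared by Hba-a1 and Hba-a2 may be missing from their sum, so the true order is uncertain.

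The counts assigned to Hba-a1 and Hba-a2, which are hard to separate, did not keep a fixed ratio. Hba-a1 exceeded Hba-a2 by 1.88 to 2.10 times in the 9 E9.5 samples, by 2.33 to 4.01 times in the 6 E8.0 samples and by 4.73 and 4.85 times in the E8.5 samples. The narrow E9.5 range covered samples of all 3 runs. Within E8.0 the control Bar26 and the mutant Bar27 had 3.94 and 4.01, the control Bar29 had 2.96, and the other 3 samples had 2.33 to 2.51.

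The adult beta chains were present at low levels. Hbb-bs held 634, 1365 and 846 CPM in the E8.0 controls and 912, 1331 and 1177 CPM in the E8.0 mutants. It held 2546, 2199, 3367, 2207 and 2007 CPM in the E9.5 controls and 3730.2, 2966, 3541 and 2276 CPM in the E9.5 mutants, all above the E8.0 samples. Its log2 fold change was 2.09 (SE 0.20, edgeR adjusted p = 4.24e-07). Hbb-bt, the lower of the 2 adult genes, rose from 109 ± 54.9 CPM (SD, n = 6) to 497 ± 139 CPM (SD, n = 9), a log2 fold change of 2.88 (SE 0.30, edgeR adjusted p = 1.09e-06), again with no overlap.

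Against the embryonic beta chains the adult ones lost ground, since Hbb-y rose more. The ratio of Hbb-bs plus Hbb-bt to Hbb-y plus Hbb-bh1 ran from 0.0359 to 0.0614 in the 6 E8.0 samples, with a median of 0.0399, and from 0.0100 to 0.0217 in the 9 E9.5 samples, with a median of 0.0191. The E9.5 ratio was 0.366 times that at E8.0 (log2 difference -1.45, SE 0.24, exact permutation p = 0.000510, adjusted 0.00128). At E8.5 it was 0.0119 in Bar3 and 0.0185 in Bar1. Of the 9 E9.5 samples, those of run 1 had 0.0178 to 0.0204, that of run 2 had 0.0217 and those of run 3 had 0.0100 to 0.0106. E9.5 samples with under 20 erythroid-set cells did not follow this split, with 0.0220 in Bar8 of run 3 and 0.0080 and 0.0046 in Bar5 and Bar6 of run 2. The ratio was lower at E9.5 than at E8.0 within run 1 alone as well.

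The balance between the loci also moved. Alpha-type UMIs exceeded beta-type UMIs by 1.502 to 2.07 times in the 6 E8.0 samples, with a median of 1.65. At E8.5 the ratio was 0.859 in Bar3 and 1.22 in Bar1, and at E9.5 it ran from 0.655 to 0.928, with a median of 0.729. All 9 E9.5 samples held more beta-type than alpha-type UMIs, and the E9.5 ratio was 0.451 times that at E8.0 (log2 difference -1.15, SE 0.09, exact permutation p = 0.000510, adjusted 0.00128). These are ratios of counted UMIs, and protein was not measured. If UMIs shared by Hba-a1 and Hba-a2 were left out of the counts, the alpha side is too low. The size of such a loss was not tested.

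In single cells Hbb-bh1 was mostly the larger of the pair at E8.0, and Hbb-y at E8.5 and E9.5. Among erythroid-set cells with at least 100 UMIs of Hbb-y plus Hbb-bh1, the median Hbb-y share of the pair was 16.5% in 463 cells at E8.0 (quartiles 5.72% and 35.0%), 83.3% in 482 cells at E8.5 and 77.6% in 1303 cells at E9.5. Hbb-y was the majority in 11.4% of the E8.0 cells, and in 1.09% to 19.6% of them by sample. Cells with a share between 20% and 80%, in which both genes were well represented, made up 43.2% at E8.0, 21.6% at E8.5 and 71.8% at E9.5. Among samples with at least 20 erythroid-set cells, this part ran from 13.3% (Bar29) to 64.1% (Bar26) at E8.0 and from 46.0% (Bar4) to 94.9% (Bar20) at E9.5. The E8.5 value rests on Bar3, which held 427 of the 482 cells and had 13.1%, while Bar1 had 85.7% of 49 cells. At E9.5 Hbb-y was the majority in 98.2% of the cells, and in 93.4% to 100% by sample. The sample medians at E8.0 were 6.64%, 27.3% and 7.77% in the controls Bar24, Bar26 and Bar29 and 8.10%, 19.6% and 23.2% in the mutants Bar25, Bar27 and Bar28. At E9.5 they lay between 71.5% and 80.6%, so that no sample median of E8.0 reached those of E9.5. The adult alpha share of alpha UMIs per cell had medians of 14.4%, 19.8% and 23.6% at E8.0, E8.5 and E9.5.

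The Hbb-y share differed with the globin content of the cell. At E8.0 the median share was 10.0% in 22 cells with under 2% of their UMIs from globin, 6.66% in 90 cells with 2% to 5%, 10.6% in 180 cells with 5% to 10% and 34.6% in 159 cells with 10% to 20%. At E9.5 it was 68.4% in 49 cells with 10% to 20% globin and 80.1% in cells with at least 50%. At the same globin content of 10% to 20%, the E9.5 cells thus had a higher Hbb-y share than the E8.0 cells. These bins pool cells of several samples. Within samples, between under 5% and 5% to 20% globin, the median went from 17.6% to 27.3% in Bar26 and from 7.23% to 11.1% in Bar29, but from 6.79% to 5.11% in Bar24 and from 7.93% to 8.03% in Bar25. At E8.0, cells with cardiomyocyte genes and no erythroid gene, described below, held 471 CPM (Bar29) to 562 CPM (Bar25) of Hbb-y. Their ratio of Hbb-y to Hbb-bh1 was 1.80 to 2.03 in the samples with at least 20 such cells. Such background weighs more on the share of a cell with little globin, and its part in these shares was not tested.

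**Figure D3:**
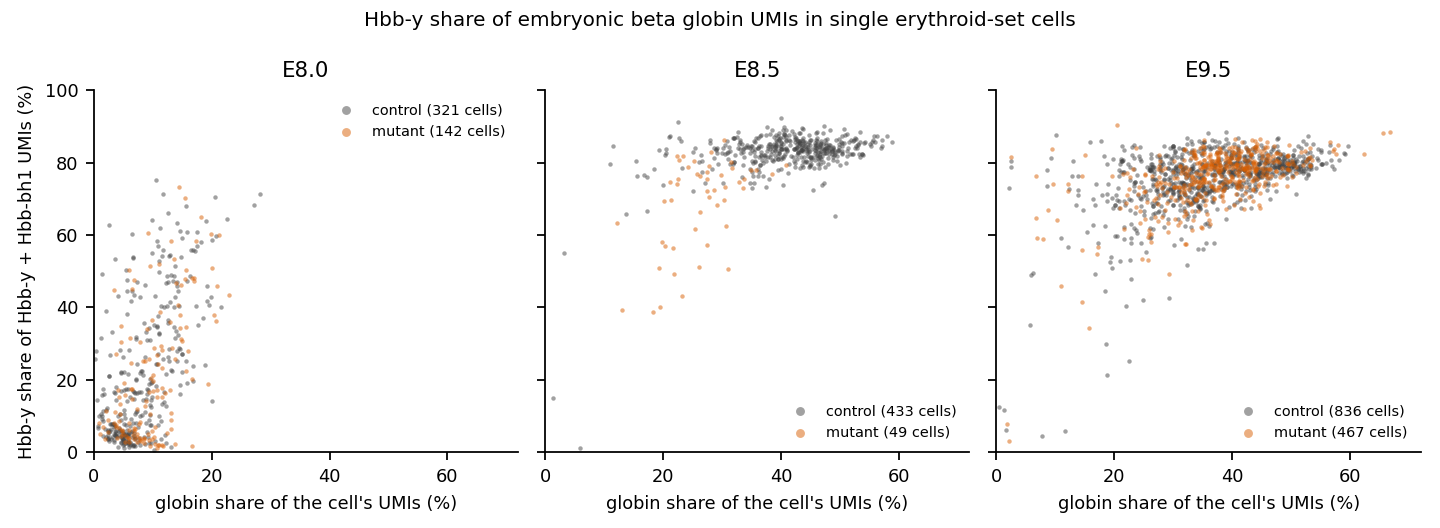
Each point is 1 erythroid-set cell with at least 100 UMIs of Hbb-y plus Hbb-bh1, with the globin share of its UMIs (percent) across and Hbb-y as a percent of the pair upwards, in 1 panel per stage, control in grey and mutant in orange. Most E8.0 cells lie low and to the left (median Hbb-y share 16.5%), and most E9.5 cells lie high (median 77.6%) over a wide range of globin shares.

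Globin UMIs were also found in cells that are not red cells, as free RNA in droplets gives, and this bears on every share of cells with a globin UMI. In 874 cells with at least 3 of 5 cardiomyocyte genes and none of the 12 erythroid genes, which should lack globin, 99.7% had an Hbb-y UMI and 96.0% an Hbb-bh1 UMI, against 100% and 100% in the erythroid set. The median depth was 20983.5 UMIs in those cells and 28288 in the erythroid set. Detection of these genes is therefore at the background and says nothing of expression, while the level differs: Hbb-y stood at 739 CPM in the cardiomyocyte-gene cells and at 121570 CPM over the erythroid set. At E8.0 the gap was smaller in the controls Bar24 and Bar29, with 480.2 and 471 CPM in the cardiomyocyte-gene cells against 2049 and 1829 CPM in the erythroid set. Over all samples detection still separated the weaker genes, with Hbb-bs in 96.1% against 26.8% of cells, Hbb-bt in 70.0% against 7.21% and Hbb-bh0 in 81.0% against 6.29%.

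Within run 1 these background UMIs had nearly the same ratio at both stages. In cells with none of the 12 erythroid genes the ratio of Hbb-y to Hbb-bh1 was 1.83 to 1.98 in the E8.0 samples of run 1 and 1.89 to 1.94 in its E9.5 samples, while the erythroid-set cells of the same samples had 0.141 to 0.611 and 2.40 to 3.67. In the samples of run 2 with at least 20 cells of this kind it was 5.04 to 5.12, and in those of run 3 3.91 to 4.20. In the same samples globin made up 0.148% to 0.198% of the UMIs of these cells in run 1, 0.127% to 0.163% in run 2 and 0.576% to 0.671% in run 3. The smaller samples Bar2 (run 2, 18 such cells) and Bar18 (run 3, 8 such cells) had ratios of 6.30 and 5.11.

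**Figure D4:**
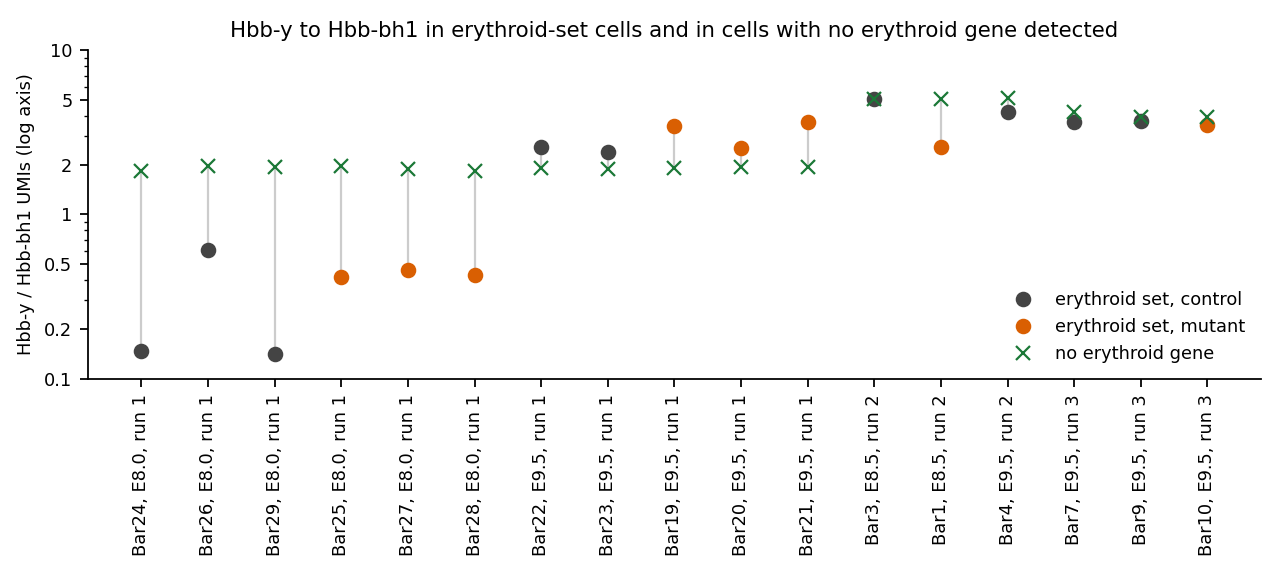
Ratio of Hbb-y to Hbb-bh1 UMIs (log axis) by sample, with circles for erythroid-set cells and crosses for cells without any of the 12 erythroid genes, joined by a line within a sample and ordered by run. In run 1 the crosses lie between 1.83 and 1.98 at both stages, while the circles lie between 0.141 and 0.611 at E8.0 and between 2.40 and 3.67 at E9.5.

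Between the genotypes no globin was called in the erythroid set after the filter on low counts. With stage and run as terms, edgeR called 0 of 8 members and 0.0406% of all genes tested, while 987 genes had an unadjusted p under 0.05. DESeq2 also called 0 members, but without the filter on low counts edgeR called 2 higher in the mutants, Hbb-bh0 and Hba-a2, and 0.614% of all genes in either direction. The fitted log2 changes were 0.18 (SE 0.38) for Hbb-y, 0.12 (SE 0.17) for Hbb-bh1, 0.23 (SE 0.17) for Hbb-bs, 0.13 (SE 0.19) for Hba-x, 0.18 (SE 0.22) for Hba-a1 and 0.29 (SE 0.20) for Hba-a2. Hbb-bt was at -0.01 (SE 0.24) and Hbb-bh0 at 1.95 (SE 0.94, adjusted p = 0.624). Over all stages control and mutant samples overlapped for every member. Within E8.0 the 3 mutant samples lay above the 3 controls for Hba-a2, at 2226, 2110.4 and 2636 CPM against 1259, 1997 and 843 CPM, and at E9.5 the genotypes overlapped for it. Hba-a1, whose counts are hard to separate from those of Hba-a2, overlapped at E8.0, with the control Bar26 at 7877 CPM above the mutant Bar28 at 6139 CPM. The E8.0 order of Hba-a2 is that of 1 member picked from 8, with 3 samples on each side, and was not tested.

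The ratios did not pass a test of genotype either. With genotypes exchanged within stage and run, in 8 control and 8 mutant samples and 1200 permutations (smallest possible p 0.000833), the log2 difference of Hbb-y to Hbb-bh1 was 0.32 (SE 0.31, exact permutation p = 0.33, adjusted 0.457). It was 0.077 (SE 0.062, exact permutation p = 0.288, adjusted 0.457) for adult alpha to Hba-x, and 0.059 (SE 0.135, exact permutation p = 0.73, adjusted 0.811) for adult to embryonic beta. For alpha to beta it was 0.0086 (SE 0.074, exact permutation p = 0.932).

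In sums over all cells of a sample, fewer red cells and less globin RNA per red cell cannot be told apart. There edgeR called 0 of 8 members between the genotypes, against 10.2% of all genes tested (4864 genes at an unadjusted p under 0.05), and DESeq2 also called 0. The fitted changes of 7 members lay between -0.42 and -0.25 on the log2 scale, with Hbb-bh0 at 0.85 (SE 0.87), and the median member was at -0.35. Hbb-y, as an example, was at -0.35 (SE 0.44, adjusted p = 0.718). At E8.0 alone 0 of 8 members and 0.0244% of genes were called (1615 genes at an unadjusted p under 0.05), with a median member of -0.81. At E9.5 alone 0 of 8 members and 10.3% of genes were called (4531 genes at an unadjusted p under 0.05), with a median member of 0.11, and without the filter on low counts Hbb-bh0 was called lower in the mutants, with 7.62% of all genes called. Within run 1 at E9.5, Hbb-bh1 (0.87, edgeR adjusted p = 0.0491), Hbb-bs (1.27, adjusted p = 0.0463) and Hbb-bh0 (0.49, adjusted p = 0.0331) were called higher in the mutants, where 7.40% of the genes tested were called in either direction. In those samples erythroid-set cells made up 11.7% to 21.6% of the 3 mutant samples and 8.96% and 9.31% of the 2 control samples, and their part in these calls was not tested. Over all samples, scaling to total UMIs alone also called 0 of 8 members, over all stages and at E9.5. It moved the share of higher calls among all calls from 43.7% to 77.0% over all stages, where DESeq2 gave 57.3%, and from 55.7% to 74.1% at E9.5.

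The number of red cells varied widely beside these values. Erythroid-set cells made up 22.4% ± 11.6 of the E8.0 control samples and 9.501% ± 5.24 of the E8.0 mutant samples (SD, n = 3 each). At E9.5 the shares were 21.4% ± 13.4 (SD, n = 5) and 17.5% ± 8.28 (SD, n = 6). The log2 odds were 0.67 lower in the mutants on average (log2 difference -0.67, SE 0.38, exact permutation p = 0.139, adjusted 0.278, n = 10 and 10).

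In all cells the stage comparison gave the same 7 members. edgeR called them higher at E9.5 than at E8.0, against 12.5% of all genes tested called higher, from Hbb-y at 4.89 (SE 0.69, adjusted p = 4.24e-05) down to Hbb-bs at 1.99. Hba-a2 was at 3.51, Hba-a1 at 3.04, Hbb-bt at 2.67, Hba-x at 2.36 and Hbb-bh1 at 2.02, while Hbb-bh0 was at -0.21 and not called. Scaling to total UMIs alone kept the 7 calls and moved the share of higher calls among all calls from 55.4% to 33.8%. Within run 1 alone, 4 of the 7 were called, against 14.7% of all genes called higher. Hba-x (1.31, adjusted p = 0.0795), Hbb-bh1 (1.24, adjusted p = 0.0959) and Hbb-bs (1.51, adjusted p = 0.0590) were not. With run as a term of the fit over all samples 6 were called, against 11.6% of all genes called higher, with Hbb-y at 3.82, and Hbb-bh1 was not (1.28, adjusted p = 0.0605).

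Between E8.5 and E8.0 edgeR called 3 members higher in all cells, against 9.15% of all genes tested. They were Hbb-y at 3.64 (adjusted p = 0.00308), Hba-a1 at 2.17 (adjusted p = 0.0266) and Hba-a2 at 1.66 (adjusted p = 0.0499). The E8.5 side had 3 samples, and the count fell to 0 without the control Bar3 and to 1 without Bar24, Bar29 or Bar1. It rose to 6 without Bar26, and the share of all genes called in these refits is not given. The share of higher calls among all calls was 48.2%, and 24.98% with scaling to total UMIs alone. With run as a term 0 members were called, and Hbb-y was at 1.77 (adjusted p = 0.461), so that a change from E8.0 to E8.5 was not shown apart from the run.

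Hbb-bh0, the annotated pseudogene between Hbb-y and Hbb-bh1, did not follow the other members. In the erythroid set it stood at 3300.4 CPM in the E8.0 mutant Bar25, at 1018 and 2848 CPM in the E8.5 samples Bar3 and Bar1 and at 1981 CPM in the E9.5 control Bar4. In the other E8.0 samples it ran from 2.47 to 57.6 CPM, where the lowest, Bar29 at 2.47 and Bar24 at 10.3 CPM, were not above the 2.69 and 13.99 CPM of their cardiomyocyte-gene cells, and in the other E9.5 samples from 90.7 to 172 CPM. Samples of every stage and both genotypes were thus high, 3 of the 4 came from run 2, and Bar5, an E9.5 mutant of run 2, was low at 85.9 CPM. In the samples that were high, nearly all red cells shared it: 86.8% of the cells of Bar25 (95% Wilson interval 75.2 to 93.5), 100% of Bar1 (92.7 to 100), 95.8% of Bar3 (93.5 to 97.3) and 95.8% of Bar4 (91.5 to 97.9) held at least 5 UMIs. In the other samples with at least 20 such cells the share was 0% to 51.3%. Bar2 and Bar6, run 2 samples of 6 and 2 erythroid cells, were also high, at 2434 and 1073 CPM.

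**Figure D5:**
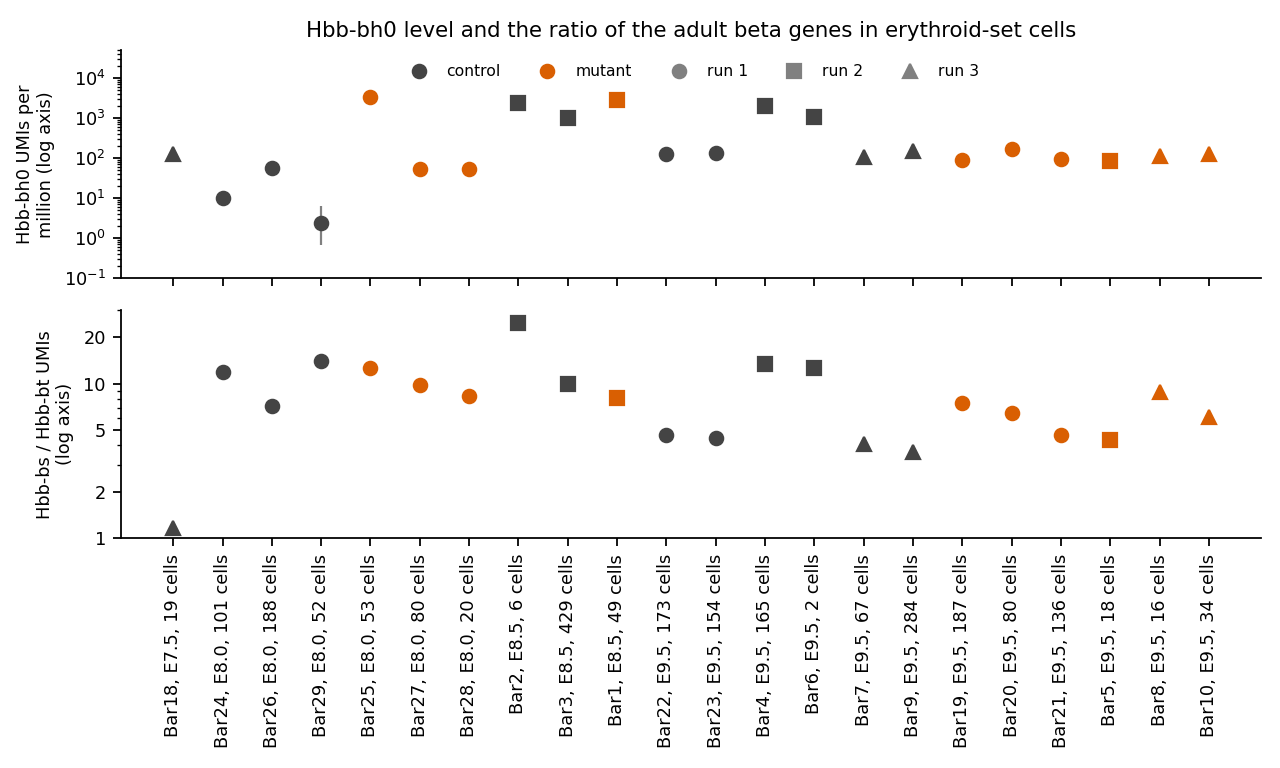
Upper panel, Hbb-bh0 in erythroid-set cells as CPM on a log axis for all 22 samples, with bars for 95% Poisson counting intervals where these exceed the point; lower panel, the ratio of Hbb-bs to Hbb-bt UMIs on a log axis. Bar25, Bar1, Bar3 and Bar4 lie between 1018 and 3300.4 CPM, and the other samples with at least 20 cells between 2.47 and 172 CPM.

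In Bar25 Hbb-bh0 made up 14.8% of the beta-type UMIs (95% Wilson interval 14.5 to 15.2), against 2.33% in Bar1, 1.15% in Bar4 and 0.451% in Bar3. With all samples and the filter on low counts no stage or genotype call on this gene passed. Without that filter it was called for genotype, higher in the mutants in the erythroid set and lower in them in all cells at E9.5. Samples far from the rest of their group entered both. In the set the E8.0 mutant Bar25 held 3300 CPM, against 54.5 and 52.7 CPM in Bar27 and Bar28. In all cells the E9.5 controls Bar4 and Bar6, both of run 2, held 733 and 476 CPM, Bar6 with only 6 cells. The E9.5 controls Bar22, Bar23, Bar7 and Bar9 held 19.2, 19.6, 53.2 and 43.6 CPM. These 2 calls are therefore not read as a difference between the genotypes. From E8.0 to E9.5 the log2 fold change of Hbb-bh0 in the erythroid set was 0.43 (SE 1.62, edgeR adjusted p = 0.886), and without Bar25 it was 3.69 (adjusted p = 0.00658). In all cells it was also called higher at E9.5 without Bar25 (3.41, adjusted p = 0.0185). Chosen after their values were seen, the genes with the highest correlation with Hbb-bh0 over 21 samples were Olfr482 (Pearson r of log2(CPM + 5) 0.85) and 2900076A07Rik (0.80), both on chromosome 7. In the erythroid set, over 17 samples, the highest was Usf3 (0.88) on chromosome 16, and none of the top 5 lay on chromosome 7. Its correlation with the other 7 members ran from 0.087 (Hbb-bt) to 0.42 (Hba-x) over all cells and from 0.15 (Hbb-bh1) to 0.51 (Hba-x) in the erythroid set, while Hbb-y and Hbb-bh1 had 0.91 over all cells.

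Other genes of haemoglobin assembly were counted from lists of known function. In the erythroid set, 8 of 8 enzymes of haem synthesis rose from E8.0 to E9.5, with a median log2 fold change of 1.33 against -0.017 over all genes, of which 15.6% were called higher. Alas2, the first and rate-limiting enzyme in red cells, which is also among the 12 set-defining genes, rose by 2.25 (edgeR adjusted p = 1.01e-06), and Fech, which inserts iron, by 1.53 (adjusted p = 3.12e-07). Under scaling to total UMIs alone 7 of 8 were called higher, all but Uros, against 3.21% of all genes. In all cells 6 of 8 were called higher, against 12.5% of all genes. With run as a term 2 of 8 were, against 11.6%, and within run 1 0 of 8, against 14.7%.

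Of 9 tested genes for iron uptake, iron storage and mitochondrial transport, 5 rose in the erythroid set: Tfrc (1.17), the transferrin receptor, Slc25a37 (1.52), the mitochondrial iron importer, Abcb10 (0.64), and the ferritin chains Ftl1 (1.14) and Fth1 (1.18). The median of the 9 was 0.64, and 15.6% of all genes were called higher. Scaling to total UMIs alone kept 4 of these calls, not Abcb10, and called Slc25a38, Slc11a2 and Ireb2 lower. Among 12 tested globin regulators, 4 were called higher (Klf1 0.46, Zfpm1 0.38, Tal1 0.50 and Nfe2 0.71) and 4 lower, with a median of -0.035, where 29.9% of all genes were called in either direction. Klf1 and Nfe2 are also among the 12 set-defining genes, so their level in the set is tied to the choice of cells. The lower ones were Myb, a progenitor factor, at -3.34 (edgeR adjusted p = 2.72e-06), Lmo2 at -0.94, Lin28b at -0.83 and Ldb1 at -0.53. Under scaling to total UMIs alone none was called higher and 9 were called lower, where 66.98% of all genes were called, with Klf1 at -0.20, Tal1 at -0.16, Zfpm1 at -0.30 and Nfe2 at 0.05, so that the rise of these 4 holds relative to other genes and not per total UMI.

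Of the globin loci outside the 8, Hbq1b, a theta-type gene of the alpha locus, rose from E8.0 to E9.5 in the erythroid set (2.28, edgeR adjusted p = 4.37e-06) and Hbb-bh2 was at 0.11 and not called. Between the genotypes no gene of these lists was called in the erythroid set. In all cells Klf1 (-0.81, edgeR adjusted p = 0.0437), Slc11a2 (-0.53, adjusted p = 0.00466) and Slc25a38 (-0.30, adjusted p = 0.0188) were called lower in the mutants, 2 of 9 iron and transport genes, 1 of 14 regulators and 0 of 8 haem enzymes against the 10.2% over all genes. With scaling to total UMIs alone Slc11a2 was called (-0.47, adjusted p = 0.0111) and Klf1 (adjusted p = 0.0569) and Slc25a38 (adjusted p = 0.0644) were not, and in run 1 over both of its stages none of the 3 was. In run 1 at E9.5, where 7.40% of all genes were called, Slc11a2 was again called lower (-0.43, adjusted p = 0.0390). There Gata1 (0.57), Zfpm1 (0.73), Nfe2 (0.73), Alas2 (1.197) and Ftl1 (0.36) were called higher in the mutants, the samples with the larger share of erythroid-set cells.

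The blood progenitor marker list was lower in every E9.5 sample than in every E8.0 sample of the erythroid set, and its part in these results was not tested. Myb, Kit, Runx1, Cd34 and Spn summed to 59.1 to 118 CPM in the E8.0 control samples and 41.8 to 95.8 CPM in the mutant samples. At E9.5 they summed to 6.85 to 27.4 CPM and 11.8 to 19.0 CPM. The endothelial genes summed to 50.3 to 73.8 CPM at E8.0 and 11.0 to 75.6 CPM at E9.5, so that those ranges overlapped.

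Across the 21 samples with at least 20 cells, the genes whose level over all cells was most like Hbb-y were Mpc1 (Pearson r of log2(CPM + 5) 0.955), Alas2 (0.948), Mgst3 (0.943), Hebp1 (0.940) and Gmpr (0.938). For Hbb-bh1 they included Acp5 (0.970), Alas2 (0.968), Slc25a37 (0.967) and Hemgn (0.965). These correlations share the number of red cells in a sample. In the erythroid set alone, over 17 samples, the genes outside the members most like Hbb-y were Mgst3 (0.979), Alas2 (0.974), March2 (0.972), Creg1 (0.967) and Aqp3 (0.965). The members Hba-a1 (0.994) and Hba-x (0.982) were above these. Outside the members, those most like Hbb-bh1 were Ncf4 (0.960), Bcl2l1 (0.948), Adra2b (0.945), Hif3a (0.928) and Skap2 (0.922), while the member Hbb-bt had 0.952. The points share library depth and stage, and are given as a description.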

How the data were processed

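The authors deposited raw UMI counts for every gene and cell, with a table that gives each cell's run, barcode, stage and condition, and the counts carry no normalization. Mapping used kallisto|bustools with its 10x v3 setting, per the labels' descriptions, and the submitters' processing notes list GRCm38 and Cell Ranger. The annotation, the cell filter and the treatment of reads that fit several genes are not given in the sources used here, and no cells were removed here. All 51923 symbols matched GENCODE M21.

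Counts were summed per barcode sample, over all cells and over the erythroid set, and given as CPM (per 1000000 UMIs). The test across genes was the two-sided quasi-likelihood F test of edgeR 4.0.16 (R 4.3.3), after filterByExpr and with TMM factors, with stage and run (genotype comparisons) or genotype (stage comparisons) as terms and Benjamini-Hochberg adjustment over all genes tested at 0.05. The SE given with an edgeR fold change is the absolute log2 fold change divided by the square root of F. The fit was also run on counts simulated from its own fitted spread. They held changes between the compared groups only, with no effect of the other terms. They were not built to hold a globin-sized shift, so the simulation does not test these features. Ratios of summed UMIs, with 0.5 added to both sides on the log2 scale, were tested by exact permutation over samples (scipy 1.17.1). Motifs were searched on both strands of RefSeq upstream regions.

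The members, lists and erythroid genes were chosen with earlier results of these data known. The genes named were the 8 members, list members that were called (else up to 2 per list) and the 5 genes most like Hbb-y and Hbb-bh1 by correlation, of which 1 is not reported here. Alternatives were DESeq2 1.42.0, other scalings, filters, erythroid thresholds, thinning to 5000 UMIs, 1 run alone, subtraction of free RNA and leaving out each sample. Scaling to total UMIs alone, run as a term of the stage fits and the subtraction were chosen after seeing the data. The same 23 droplet barcodes in more than 1 run were kept.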

Additional observations from a re-analysis of the deposited data

Results flagged for a closer look

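A gene or ratio in a group of 4 or 5 samples was examined 30 times for a sample far from the others, and 7 values stood apart. The threshold is meant to pass about 1 in 20 independent, normally distributed values. The ratios reuse the same genes and samples, so the tally cannot be compared with that rate. In the E9.5 controls, 4 of these values came from Bar4, the only run 2 sample among the 5: Hbb-bh0 was high at 1981 CPM, Hbb-bt was low at 249 CPM, the ratio of Hbb-bs to Hbb-bt was high at 13.5 and the ratio of Hbb-bh0 to Hbb-bh1 was high at 0.0616. In the E9.5 mutants, Bar20 was low in Hba-a2, at 10782 CPM, and high in the ratio of alpha to beta UMIs, at 0.829. Bar10, the only run 3 sample of the 4, was low in the ratio of adult to embryonic beta UMIs, at 0.0106.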

How the results depend on the processing

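The 4 ratio changes from E8.0 to E9.5 kept their direction and their call in every alternative run: 2.72 to 4.13 (log2) for Hbb-y to Hbb-bh1, 0.73 to 0.89 for adult alpha to Hba-x, -1.52 to -1.16 for adult to embryonic beta and -1.21 to -1.01 for alpha to beta. Of 442 alternative values for the 17 called changes of members other than Hbb-bh0, 413 kept the call, 29 lost it and 0 reversed.

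Counts of called members changed in these cases. With no low-count filter 1 was called for genotype at E9.5 (Hbb-bh0) and 2 for genotype in the erythroid set (Hbb-bh0 and Hba-a2). Within run 1 alone 3 were called for genotype at E9.5 and 4 for E9.5 against E8.0 in all cells. For E8.5 against E8.0, with 3 called, run as a term gave 0 and leaving out 1 sample gave 0 to 6. DESeq2 and both other scalings gave 2 there, and no low-count filter 4. The share of all genes called is not given for these refits of E8.5 against E8.0, so their counts cannot be set against it. For E9.5 against E8.0, with 7 called, run as a term gave 6 in all cells. Leaving out Bar25 gave 8 there and in the erythroid set, again with no share of all genes given.

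Reversed values were of differences not called with all samples, and the cause was not tested. With run as a term Hbb-bh1 was -0.39, Hbb-bh0 -2.29 and Hba-x -0.0026 for E8.5 against E8.0 in all cells, and Hbb-bh0 -0.74 for E9.5 against E8.0 in the erythroid set. Run 1 alone gave Hbb-y 0.067 and Hba-a2 0.17 for genotype in all cells, Hbb-bh0 0.49 and Hba-x 0.78 at E9.5, Hbb-bt 0.25 in the erythroid set, and -0.25 for Hbb-bh0 from E8.0 to E9.5 in that set. In the set with at least 2 of the 12 genes the genotype values were Hbb-y -0.22, Hbb-bh1 -0.16, Hba-x -0.15, Hba-a1 -0.13 and Hba-a2 -0.044. Hbb-bt there was 0.035 with DESeq2 and 0.0066 with total UMIs alone, a scaling that also gave Hbb-bh0 -0.17 for stage. The genotype difference of adult to embryonic beta was -0.0180 over all cells of the samples, -0.044 in run 1 and -0.026 to 0.15 without 1 sample, and that of alpha to beta -0.0537, -0.0526 and -0.066 to 0.057.

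Leaving out 1 sample gave, for genotype in all cells, Hbb-y -0.61 to 0.18, Hbb-bt -0.62 to 0.047 and Hbb-bh0 -0.46 to 1.31. At E8.0 it gave Hbb-y -1.28 to 0.85, Hbb-bt -1.63 to 0.11, Hba-x -1.27 to 0.19, Hba-a1 -1.23 to 0.29, Hba-a2 -0.92 to 0.11 and Hbb-bh0 -0.37 to 5.65. At E9.5 it gave Hbb-y -0.16 to 0.62, Hbb-bh1 -0.27 to 0.45, Hbb-bs -0.14 to 0.51, Hbb-bt -0.24 to 0.57, Hba-a1 -0.30 to 0.42, Hba-a2 -0.25 to 0.50 and Hba-x -0.40 to 0.21. In the erythroid set it gave Hbb-y -0.013 to 0.77 and Hbb-bt -0.12 to 0.26. For Hbb-bh0 from E8.0 to E9.5 it gave -0.955 to 3.41 in all cells and -0.46 to 3.69 in the set.

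No paired analysis was possible because control and mutant samples share no replicate number, and run, which both share, was a term of the genotype fits instead. Each E8.0 group had 3 samples, E8.5 had 1 mutant sample, and thinning to 5000 UMIs left out 365 control and 82 mutant cells.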

Other observations

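5 samples held fewer than 20 erythroid-set cells and entered no test on that set. The sample labelled E7.5 (Bar18, 19 such cells, run 3) had an Hbb-y to Hbb-bh1 ratio of 3.18, an adult alpha to Hba-x ratio of 0.318 and an alpha to beta ratio of 0.752, each within the range of the E9.5 samples, and globin made up 42.1% of the UMIs of its erythroid set. Its ratio of adult to embryonic beta UMIs, 0.00809, lay below the E9.5 range of 0.0100 to 0.0217. Its Hbb-bs to Hbb-bt ratio was 1.17, below every sample in the tests. The E8.5 control Bar2, with 6 such cells, had an Hbb-y to Hbb-bh1 ratio of 2.72. The E9.5 samples Bar5 (mutant), Bar8 (mutant) and Bar6 (control) had 4.82, 2.46 and 5.89, from 18, 16 and 2 cells.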
